A study of Mus musculus with 32 samples.

Results

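Genes that mark the epithelial or the mesenchymal state of a carcinoma cell were followed through a polysome profiling experiment in 4T1 spheroids. Their members are the epithelial genes Cdh1, Epcam, Krt8, Krt18 and Cldn7 and the mesenchymal genes Vim, Fn1, Snai1, Snai2 and Zeb1, looked up by gene symbol. Of these 10 genes, 9 were found among the 17757 genes with counts, and Snai2 was not analysed here. 8 of the 9 had a mean of at least 50 counts over the libraries, and Zeb1 did not. 4T1 is a mouse mammary carcinoma line labelled triple negative, and the spheroids were grown in lung-like medium (LLM) for a total of 5 days, a medium made to resemble the nutrients of the lung.

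There were 4 conditions. ASP shSCR spheroids carried a non-targeting shRNA and received 700 µM aspartate, and NoASP shSCR spheroids carried the same shRNA without added aspartate. ASP shGRIN2D spheroids were silenced for Grin2d, which encodes a subunit of the NMDA receptor, and ASP shDHPS spheroids for Dhps, whose product makes the first step of hypusine formation on eIF5A. Both knockdown lines received 700 µM aspartate. The shRNAs were delivered by lentivirus and the cells were polyclonal after puromycin, so a knockdown condition differs from ASP shSCR both in the silenced gene and in the line, and these cannot be told apart. Each condition had 4 spheroid pellets, and each pellet gave a polysomal library (mRNA on more than 3 ribosomes) and a sub-polysomal library (fewer than 3), 32 libraries in all. Totals ran from 12870563 to 25639437 counts per library with a median of 18168765.

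Epithelial cells hold together through E-cadherin junctions, tight junctions and a keratin cytoskeleton, whereas mesenchymal cells use vimentin filaments and deposit fibronectin. The transition between these states is driven by repressors of the Snail and ZEB families, which bind E-box sequences and lower E-cadherin transcription. Carcinoma cells often express both kinds of gene at once, and 4T1 cells are known to keep E-cadherin while being highly metastatic.

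The cells were checked against their labels first. Dhps was listed at 40.2, 32.2, 41.0 and 39.6 CPM (counts scaled to the size of the library) in the 4 sub-polysomal ASP shSCR libraries and at 9.54, 10.4, 9.63 and 8.44 CPM in those of ASP shDHPS, with no overlap and a log2 difference of −2.01 (SE 0.16, adjusted p = 1.11e-08) by edgeR's quasi-likelihood test. Grin2d was lowly expressed, at 4.01, 3.63, 6.54 and 3.18 CPM in ASP shSCR and 2.45, 1.76, 2.51 and 2.73 CPM in ASP shGRIN2D, and its log2 difference of −0.88 (SE 0.29, adjusted p = 0.232) did not pass the threshold of 0.05, although the groups did not overlap. In polysomal libraries Grin2d was at 4.26, 2.80, 4.204 and 3.57 CPM and 2.06, 1.14, 1.11 and 2.45 CPM, again with no overlap and no call, a log2 difference of −1.14 (SE 0.33, adjusted p = 0.263). Of the luminal carcinoma markers Krt7, Krt19, Cldn3, Cldn4, Elf3 and Ehf, the first 5 had at least 176 counts in every library, and Ehf had 0 to 30. The endothelial gene Pecam1 (0 to 12 counts) and the leukocyte gene Ptprc (0 to 21) were near 0 in all libraries. Of the receptors that a triple-negative line should lack, Esr1 had 14 to 135 counts and Erbb2, the most abundant, 877 to 3213 counts (48.6 to 165 CPM), while Pgr was not among the 17757 genes with counts and was not analysed here. Of the 5 fibroblast markers Thy1, Pdgfra, Pdgfrb, Dcn and Lum, 2 were among the genes with counts, Thy1 at 1406 to 5297 counts and Pdgfra at 143 to 621. Pdgfrb, Dcn and Lum were not and were not analysed here, and the part of any non-carcinoma cell in the values below was not tested. For flow cytometry the paper used 4T1 cells with a lentiviral Thy1 reporter. It does not say whether the cells of these spheroids carried it, so Thy1 counts need not come from fibroblasts.

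2 libraries of ASP shSCR stood apart and bear on every comparison with that condition. On a scale where the mean sub-polysomal library is at 0 and the mean polysomal library at 1, its polysomal replicate 1 lay at 0.372, between the other 15 polysomal libraries (0.777 to 1.27) and the 16 sub-polysomal ones (−0.114 to 0.162). Its sub-polysomal replicate 2 had the highest Krt8, Krt18 and Vim of all 16 sub-polysomal libraries.

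Keratins and vimentin were the most abundant of these transcripts. Per kilobase of transcript and over the 16 sub-polysomal libraries, the order was Krt18 (564 ± 269.5 CPM per kb, mean ± SD), Krt8 (467 ± 150.2), Vim (301 ± 71.9), Epcam (165 ± 43.0), Cldn7 (95.5 ± 25.6), Fn1 (41.3 ± 8.79), Cdh1 (28.3 ± 5.52) and Snai1 (12.0 ± 2.56). Krt18 and Krt8, the paired type I and type II keratins of simple epithelia, differed by less than their SDs. Over these pooled libraries, every other neighbour in this order differed from the next by more than either SD. Among them were Epcam, a surface adhesion protein, and Cldn7, a claudin of tight junctions. This did not hold within every condition. In ASP shGRIN2D, Krt8 was at 689 ± 140 CPM and Vim at 736 ± 134 CPM before division by length. Zeb1, at 0.0269 ± 0.0219 CPM per kb, was the lowest. It had 0 to 15 counts per library and 126 counts over all 32, and the 6 libraries in which it was at 0 allow up to 3 counts each. Both epithelial keratins and the mesenchymal filament gene Vim were thus abundant in the same spheroids, while no difference in Zeb1 was called at these counts.

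The keratin pair had lower values in the sub-polysomal fraction of both knockdown lines than in ASP shSCR, and this was called for ASP shDHPS. Krt8 was at 1080.1, 1748, 1039.7 and 1034 CPM in ASP shSCR and at 607, 697, 856 and 768 CPM in ASP shDHPS. It was at 521, 673, 862 and 699 CPM in ASP shGRIN2D and 1054, 1203, 813 and 975 CPM in NoASP shSCR. All 8 knockdown libraries were below all 4 ASP shSCR libraries, and the highest of them overlapped the lowest NoASP shSCR library. Krt18 was at 1011, 2026, 757 and 892 CPM in ASP shSCR, and replicate 2 stood well above the other 3. In ASP shDHPS it was at 520.5, 578, 681 and 570.3 CPM and in ASP shGRIN2D at 529.9, 504, 714 and 575 CPM. NoASP shSCR gave 1040.4, 1219.8, 586 and 771 CPM. Here too the knockdown libraries were all below ASP shSCR and overlapped NoASP shSCR.

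Against ASP shSCR, Krt8 fell in ASP shDHPS with a log2 difference of −0.74 (SE 0.20, adjusted p = 0.049) and Krt18 with −0.995 (SE 0.24, adjusted p = 0.032). These were the 2 calls among the 9 genes, beside 251 of the 17757 genes (1.41%) called in this comparison, 173 lower (0.974%) and 78 higher (0.439%). In ASP shGRIN2D the differences were −0.83 (SE 0.20, adjusted p = 0.0562) for Krt8 and −1.01 (SE 0.24, adjusted p = 0.062) for Krt18, past edgeR's threshold in neither, in a comparison with 56 genes called (0.315%), 37 lower (0.208%) and 19 higher (0.107%). DESeq2's Wald test called Krt8 there (adjusted p = 0.00249) and not Krt18 (adjusted p = 0.0666), and edgeR with the replicate number as a block called both (adjusted p = 0.00882 and 0.0219), although the numbers were not found to pair the pellets of this comparison. The comparisons share the ASP shSCR libraries. The difference between the knockdown lines was 0.087 (SE 0.19, adjusted p = 0.935) for Krt8 and 0.017 (SE 0.24, adjusted p = 1) for Krt18. In bulk libraries, fewer cells expressing a gene and less RNA per cell cannot be told apart. Both calls ended without ASP shSCR replicate 2, where the log2 difference was −0.53 for Krt8 (adjusted p = 0.247) and −0.60 for Krt18 (adjusted p = 0.232), and the count of genes called over the table went from 251 to 80. Leaving out any 1 of the 4 ASP shDHPS libraries also ended both calls (Krt8 from −0.66 to −0.82, Krt18 from −0.94 to −1.07), and that of Krt8, which lay close to the threshold, ended as well without ASP shSCR replicate 1, NoASP shSCR replicates 1 or 2 or ASP shGRIN2D replicate 4 (from −0.74 to −0.80). Without ASP shSCR replicate 2 the differences of ASP shGRIN2D were −0.60 for Krt8 and −0.60 for Krt18. Other leave-outs gave calls there, of Krt8 without NoASP shSCR replicate 3 (adjusted p = 0.0473) or ASP shGRIN2D replicate 3 (adjusted p = 0.0472) and of Krt18 without ASP shSCR replicate 3 (adjusted p = 0.0222), ASP shSCR replicate 4 (adjusted p = 0.0496) or NoASP shSCR replicate 3 (adjusted p = 0.0415). All of these kept the lower direction.

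**Figure D1:**
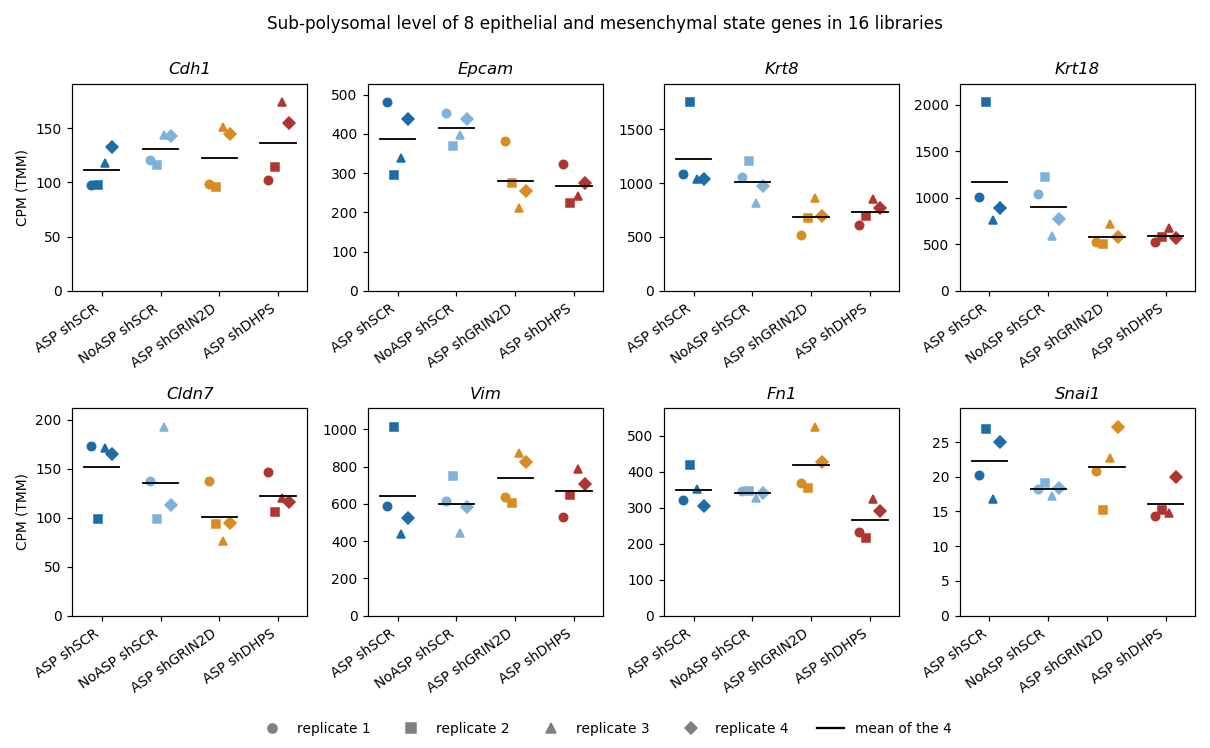
Sub-polysomal level of 8 genes (CPM after TMM normalization, linear axis from 0) in the 16 libraries, by condition. Symbols give the replicate number and lines the mean of the 4 libraries. Krt8 and Krt18 of both knockdown lines lie below all ASP shSCR libraries, and ASP shSCR replicate 2 is high for Krt8, Krt18 and Vim.

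Krt8 and Krt18 lie near each other on chromosome 15 (GRCm38, GENCODE M21: Krt8 at chr15:101996698-102004482 on the minus strand, Krt18 at chr15:102028180-102032027 on the plus strand), and their levels moved together, with a Pearson correlation of log2 CPM of 0.94 over the 16 sub-polysomal and 0.95 over the 16 polysomal libraries. These libraries share conditions and normalization, so the values are descriptive. The 250 bases before each RefSeq start site (GRCm38.p6) are shown because the pair moved together and because the E-box CACCTG, the letters known for binding Snail and ZEB factors, occurs once in each, in capitals (CACCTG or its reverse complement CAGGTG, on either strand). Counted from the start site, it begins at base −111 in Krt8 (chr15:102004343-102004592, minus strand) and at base −214 in Krt18 (chr15:102027966-102028215, plus strand). GENCODE M21 places both gene starts within these windows.
Krt8: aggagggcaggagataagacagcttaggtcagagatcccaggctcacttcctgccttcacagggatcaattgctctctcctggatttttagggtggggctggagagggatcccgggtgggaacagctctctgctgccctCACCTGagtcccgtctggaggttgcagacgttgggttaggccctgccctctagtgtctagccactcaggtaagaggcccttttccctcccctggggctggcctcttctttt
Krt18: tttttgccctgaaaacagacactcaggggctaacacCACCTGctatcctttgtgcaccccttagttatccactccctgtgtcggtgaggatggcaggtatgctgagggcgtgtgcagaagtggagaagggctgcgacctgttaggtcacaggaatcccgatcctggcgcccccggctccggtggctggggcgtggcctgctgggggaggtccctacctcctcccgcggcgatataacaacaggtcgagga
Of all 32851 RefSeq promoter windows, which run from 250 bases before to 50 after the start, 20.2% hold these letters, so their presence in 2 windows is a description and says nothing of binding. Among the other matched windows the letters occurred in 1 copy for Snai1, in 2 copies for Epcam and in 2 copies in 1 of the 2 windows of Cldn7. These letters are not in the window of Vim.

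The edgeR test called none of the other epithelial genes in either fraction, and their values moved in different directions. Cdh1, which encodes E-cadherin (chr8:106603351-106670246), was at 97.9, 97.2, 118 and 133 CPM in sub-polysomal ASP shSCR libraries, 121, 116, 144 and 143 CPM in NoASP shSCR, 98.2, 95.4, 151 and 145 CPM in ASP shGRIN2D and 102, 114, 174 and 154 CPM in ASP shDHPS. The groups overlapped throughout, and the log2 difference of ASP shDHPS from ASP shSCR was 0.29 (SE 0.18, adjusted p = 0.455), opposite in sign to the keratins. Epcam (chr17:87635979-87651129) was at 481, 294, 339 and 437 CPM in ASP shSCR, 382, 274, 211 and 255 CPM in ASP shGRIN2D and 324, 224, 242 and 274 CPM in ASP shDHPS. It had log2 differences of −0.47 (SE 0.18, adjusted p = 0.326) and −0.54 (SE 0.18, adjusted p = 0.138) in the knockdown lines, with 1 or more libraries of each within the range of ASP shSCR. With the replicate number as a block the ASP shDHPS difference was −0.53 (adjusted p = 0.0196), a call, although the numbers were not found to pair the pellets here. NoASP shSCR gave 455, 370.4, 396 and 438 CPM, above all 4 ASP shDHPS libraries and overlapping ASP shSCR. Cldn7 (chr11:69964779-69967885) was at 173, 98.4, 171 and 165 CPM in ASP shSCR, where replicate 2 was low, and at 138, 93.5, 76.2 and 94.997 CPM in ASP shGRIN2D, a log2 difference of −0.59 (SE 0.21, adjusted p = 0.251). In ASP shDHPS it was at 147, 106, 120.0 and 116 CPM, with a difference of −0.32 (SE 0.20, adjusted p = 0.466). Thus 4 of the 5 epithelial genes had lower values in each knockdown line, Cdh1 had higher ones, and calls were made for the keratins in ASP shDHPS. Replicate numbers pair the sub-polysomal libraries of the knockdown lines, and in every pair Cdh1 and Cldn7 were higher in ASP shDHPS than in ASP shGRIN2D. Neither difference was called, with or without the number as a block.

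Among the mesenchymal genes no call was made in either fraction against ASP shSCR. Vim (chr2:13573927-13582826) was at 591, 1011, 438 and 521 CPM in sub-polysomal ASP shSCR libraries and 615, 751, 443 and 583 CPM in NoASP shSCR. It was at 639, 605, 874 and 825 CPM in ASP shGRIN2D and 528, 647, 789 and 708 CPM in ASP shDHPS, where the ranges overlapped those of both shSCR conditions. The log2 differences from ASP shSCR were 0.20 (SE 0.22, adjusted p = 0.775) and 0.060 (SE 0.22, adjusted p = 0.932). Fn1, which encodes fibronectin (chr1:71585520-71653200), was at 320.4, 418, 354 and 306 CPM in ASP shSCR and 346, 346, 327 and 341 CPM in NoASP shSCR. It was at 369, 355, 524 and 427 CPM in ASP shGRIN2D and 231, 217, 325 and 290.1 CPM in ASP shDHPS. Every ASP shDHPS library was below every ASP shGRIN2D library, and the 4 NoASP shSCR libraries lay between them without overlap. The log2 difference between the lines was −0.66 (SE 0.17, adjusted p = 0.0565), which narrowly missed the threshold, in a comparison with 129 genes called (0.726%), 75 of them lower (0.422%). Replicate numbers pair the pellets of these lines, and with the number as a block the difference was −0.66 with an adjusted p of 0.012, a call. The filter for low counts in edgeR (filterByExpr), which leaves fewer genes in the test, also gave a call (adjusted p = 0.0476), as did DESeq2's Wald test (adjusted p = 0.00338) and 3 of the 16 fits that left out 1 library (without ASP shSCR replicate 2, ASP shGRIN2D replicate 2 or ASP shDHPS replicate 3).

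Snai1 encodes a zinc finger repressor of E-cadherin (chr2:167538195-167542814) and was expressed at a low level. It was at 20.3, 26.9, 16.8 and 25.0 CPM in sub-polysomal ASP shSCR libraries, 18.2, 19.1, 17.2 and 18.4 CPM in NoASP shSCR, 20.8, 15.2, 22.7 and 27.2 CPM in ASP shGRIN2D and 14.4, 15.2, 14.8 and 20.0 CPM in ASP shDHPS. Replicates 1 to 3 of ASP shDHPS were below all 4 ASP shSCR libraries and replicate 4 was within their range. The log2 difference of ASP shDHPS from ASP shSCR was −0.47 (SE 0.18, adjusted p = 0.206). That of ASP shGRIN2D was −0.051 (SE 0.18, adjusted p = 0.949), and 0.061 with ASP shSCR replicate 2 left out. Zeb1, a related repressor, had 10, 5, 19 and 13 counts summed over the 4 sub-polysomal libraries of ASP shSCR, NoASP shSCR, then ASP shGRIN2D and ASP shDHPS and 35, 11, 22 and 11 over the polysomal ones. It was called in no comparison, and no fold is given at these counts.

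**Figure D2:**
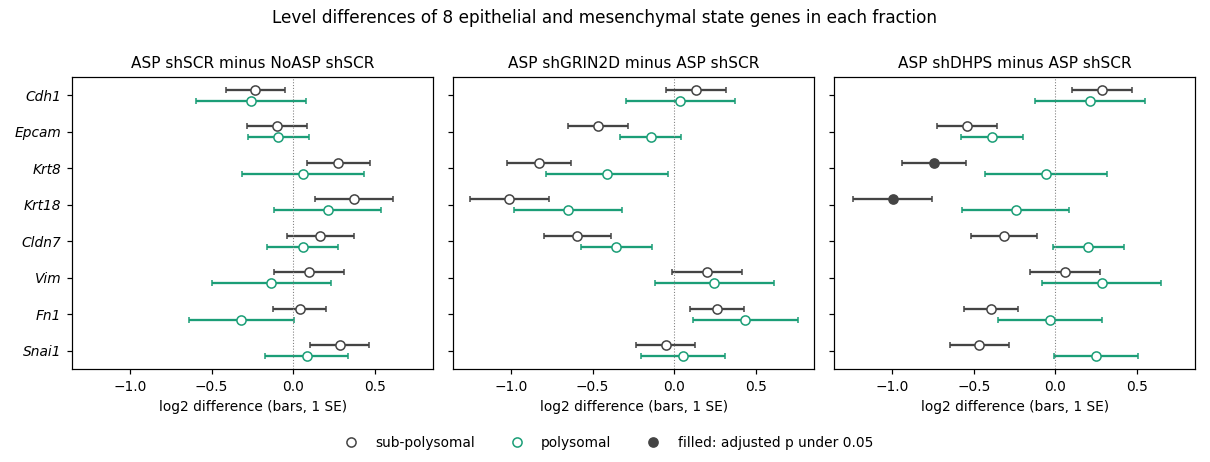
Log2 difference in level of 8 genes in 3 comparisons, with sub-polysomal values in black and polysomal values in green. Bars are 1 SE of the edgeR fit, and filled points passed an adjusted p of 0.05. The 2 filled points are Krt8 and Krt18 in the sub-polysomal comparison of ASP shDHPS with ASP shSCR, at −0.74 and −0.995.

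No difference between the control cells with and without added aspartate passed the test for these genes. Between ASP shSCR and NoASP shSCR, the sub-polysomal log2 differences of the 8 genes ran from −0.23 for Cdh1 to 0.37 for Krt18 (SE 0.18 and 0.24), with a lowest adjusted p of 0.848. The Krt18 value rested on ASP shSCR replicate 2, without which it was −0.025, and Epcam (0.018), Vim (−0.21) and Fn1 (−0.056) also turned in direction. In polysomal libraries they ran from −0.32 for Fn1 to 0.21 for Krt18. There the values of Krt8 (−0.19), Krt18 (−0.14), Snai1 (−0.054) and Epcam (0.017) turned without ASP shSCR replicate 1, and those of Cldn7 (−0.11) and Vim (0.074) without replicate 2. The groups overlapped for every gene. Replicate numbers pair the sub-polysomal libraries of these conditions, and within pairs Cdh1 was lower with aspartate in 4 of 4 and Krt8 higher in 4 of 4. With the number as a block, the difference was −0.24 (SE 0.13, adjusted p = 0.681) for Cdh1 and 0.26 (SE 0.16, adjusted p = 0.696) for Krt8. The other 6 genes moved in both directions over the 4 pairs. edgeR called 0 of the 17757 genes (0%) in this comparison in either fraction, with 871 sub-polysomal and 1376 polysomal genes at an unadjusted p under 0.05, and DESeq2's Wald test called 1 gene in each.

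In the polysomal fraction pellets of 1 condition differed widely, and no difference between conditions was called for these genes. Krt8 was at 2924, 1006, 1944 and 2242 CPM in ASP shSCR, 1889, 1025, 1717 and 3149 CPM in NoASP shSCR, 1703, 884, 1085 and 2421 CPM in ASP shGRIN2D and 2432, 1043, 2033 and 2295 CPM in ASP shDHPS. Replicate 2 was the lowest library in all 4 conditions. The same was true of Krt18, Cdh1, Vim and Fn1, and replicate 4 was the highest in all 4 for Cdh1. Cdh1 was at 346, 201, 347 and 427 CPM in ASP shSCR and 362, 236, 331 and 651 CPM in NoASP shSCR, and at 326, 182, 312 and 536 CPM and 355, 241, 416 and 520.1 CPM in ASP shGRIN2D and ASP shDHPS. The labels do not say what is shared by pellets of the same number, and the part of any shared handling was not tested. Epcam did not share this order, with 551, 975, 767 and 798 CPM in ASP shSCR, where the library that stood apart was lowest, and 565, 629, 599 and 571 CPM in ASP shDHPS. Its difference between these conditions, −0.39 (SE 0.19, adjusted p = 0.308), was the furthest from 0 of the 8 genes in this comparison and had the sign of the sub-polysomal one.

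Krt18 was at 2519, 907, 1296 and 1542 CPM in polysomal ASP shSCR libraries, 1421, 815, 1283 and 1885 CPM in NoASP shSCR, 1243, 607, 808 and 1332 CPM in ASP shGRIN2D and 1673, 780.1, 1446 and 1399.8 CPM in ASP shDHPS, with replicate 2 lowest in each. Vim was at 1424, 537, 856 and 1204 CPM in ASP shSCR and 1138, 723, 1313 and 1725 CPM in ASP shDHPS, with 0.29 (SE 0.36, adjusted p = 0.741). Fn1 was at 259, 253, 391 and 396 CPM in ASP shSCR, 326, 278, 619 and 535 CPM in ASP shGRIN2D and 205, 187, 473 and 405 CPM in ASP shDHPS. These groups overlapped, and the difference between the knockdown lines was −0.47 (SE 0.32, adjusted p = 0.709), in the direction of the sub-polysomal fraction. Snai1 was at 44.0, 27.8, 39.2 and 32.3 CPM in ASP shSCR and 61.2, 31.7, 39.4 and 38.1 CPM in ASP shDHPS, where its difference of 0.25 (SE 0.26, adjusted p = 0.664) had the sign opposite to the sub-polysomal one. Cldn7 was at 84.5, 151, 111 and 106 CPM in ASP shSCR, with the library that stood apart lowest, 89.6, 101, 81.1 and 81.4 CPM in ASP shGRIN2D and 117, 138, 169 and 95.8 CPM in ASP shDHPS.

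With all libraries in the fit, the keratin differences were closer to 0 here than in the sub-polysomal fraction. For ASP shDHPS minus ASP shSCR the polysomal log2 difference was −0.057 (SE 0.37, adjusted p = 0.972) for Krt8 and −0.24 (SE 0.33, adjusted p = 0.761) for Krt18, and for ASP shGRIN2D it was −0.41 (SE 0.38, adjusted p = 0.844) and −0.65 (SE 0.33, adjusted p = 0.584). Without ASP shSCR replicate 1, the Krt8 and Krt18 differences of ASP shDHPS were 0.18 and 0.089. Without replicate 2 they were −0.28 and −0.43, and those of ASP shGRIN2D were −0.64 and −0.84, further from 0 than the sub-polysomal values of −0.60 and −0.60 without that replicate. The order of the fractions in ASP shGRIN2D thus turned with 1 pellet. None of the 9 genes was called in any polysomal comparison, where 30 genes (0.169%) were called for ASP shDHPS, 2 of them higher (0.0113%) and 28 lower (0.158%), 3 (0.0169%) for ASP shGRIN2D and 15 (0.0845%) between the knockdown lines, 4 higher (0.0225%) and 11 lower (0.0619%). The largest difference between the knockdown lines was that of Cldn7, 0.56 (SE 0.22, adjusted p = 0.417).

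**Figure D3:**
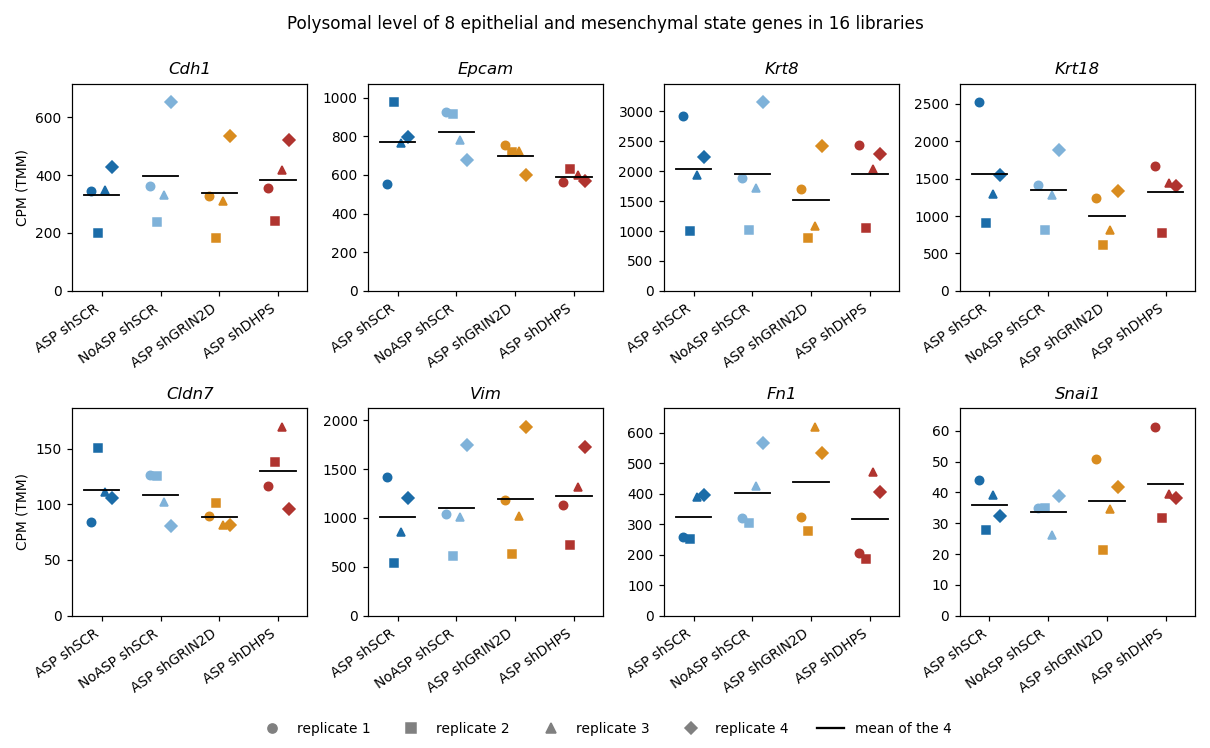
Polysomal level of 8 genes (CPM after TMM normalization, linear axis from 0) in the 16 libraries, by condition. Symbols give the replicate number and lines the mean of the 4 libraries. Squares (replicate 2) are lowest in all 4 conditions for Cdh1, Krt8, Krt18, Vim and Fn1.

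The polysomal to sub-polysomal ratio of a pellet shows where on the gradient a transcript lay relative to the average transcript, which TMM normalization places at 0. Cdh1 mRNA lay furthest toward polysomes of the 8 genes on average. Its log2 ratio was 1.42, 0.93, 1.41 and 1.57 in ASP shSCR, 1.45, 0.87, 1.096 and 2.06 in NoASP shSCR, 1.57, 0.83, 0.92 and 1.77 in ASP shGRIN2D and 1.66, 0.98, 1.104 and 1.60 in ASP shDHPS. It was above 0 in all 16 pellets, from 0.83 to 2.06. The fitted ratio was 1.33 (SE 0.21, adjusted p = 1.23e-05) in ASP shSCR, 1.37 in NoASP shSCR, 1.27 in ASP shGRIN2D and 1.335 in ASP shDHPS, called in each. Epcam ratios were −0.20, 1.61, 1.04 and 0.75 in ASP shSCR and 0.66, 1.39, 1.15 and 0.90 in ASP shDHPS. Epcam was also called polysomal in all 4 conditions, with 0.80, 0.85, 1.22 and 1.03 in the same order and 15 of 16 pellets above 0. The exception was the ASP shSCR pellet whose polysomal library stood apart, at −0.20, and the ASP shSCR call was lost without replicate 2 (0.49, adjusted p = 0.0997). The background is broad, since 39.7%, 44.3%, 43.5% and 43.1% of all genes were called in 1 direction or the other in the 4 conditions in this order, and 20.8%, 23.7%, 23% and 21.8% of all genes were called polysomal in ASP shSCR, NoASP shSCR, then ASP shGRIN2D and ASP shDHPS and 18.9%, 20.6%, 20.4% and 21.3% sub-polysomal.

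Of the other genes, Snai1 was called polysomal in 3 conditions, with 0.75 (SE 0.20, adjusted p = 0.00313) in NoASP shSCR, 0.63 (SE 0.20, adjusted p = 0.0117) in ASP shGRIN2D and 1.23 (SE 0.20, adjusted p = 1.67e-05) in ASP shDHPS. In ASP shSCR it was 0.49 (SE 0.20, adjusted p = 0.0516), and without replicate 2 of that condition it was called (0.64, adjusted p = 0.0222), as it was with filterByExpr (adjusted p = 0.0393). The ASP shGRIN2D call ended without its replicate 1, at 0.44 (adjusted p = 0.133). Krt8 was called in ASP shGRIN2D, at 0.93, and ASP shDHPS, at 1.22, and Krt18 in ASP shDHPS, at 0.99. Krt8 was not called in ASP shSCR, at 0.49, or NoASP shSCR, at 0.72, but without ASP shSCR replicate 2 it was called in both (0.89, adjusted p = 0.0226, and 0.67, adjusted p = 0.0434). The NoASP shSCR value was also called with no pellet term (0.82, adjusted p = 0.0313). Krt8 was not called in ASP shGRIN2D without replicate 1 (0.70) or replicate 4 (0.67), nor Krt18 in ASP shDHPS without replicate 1 (0.80). DESeq2's Wald test did not call Krt8 in ASP shGRIN2D (adjusted p = 0.113) or Krt18 in ASP shDHPS (adjusted p = 0.0552). Cldn7 had fitted values below 0 in all 4 conditions, with 5 of 16 pellets above 0 and a call in ASP shSCR, −0.62 (SE 0.25, adjusted p = 0.0443), which was lost without ASP shSCR replicates 1, 3 or 4 (from −0.57 to −0.41) and, at adjusted p near the threshold, without NoASP shSCR replicates 1 or 4 or ASP shGRIN2D replicate 4. It was kept without ASP shSCR replicate 2, at −1.03. Its ratios were −1.43, 0.50, −0.76 and −0.76 in the ASP shSCR pellets and −0.47, 0.29, 0.34 and −0.43 in those of ASP shDHPS. Vim had positive fitted values (0.47, 0.69, 0.47 and 0.69 in the 4 conditions) and Fn1 values near 0 (−0.32, 0.073, −0.12 and 0.022), called in none. With ASP shSCR replicate 2 left out, Vim was called in ASP shSCR (0.88, adjusted p = 0.0123), NoASP shSCR (0.64, adjusted p = 0.0333) and ASP shDHPS (0.66, adjusted p = 0.0264). Krt18 in ASP shSCR, at 0.27, went to −0.032 without replicate 1 and 0.70 without replicate 2, called in neither case. Counted over the 9 genes, 2, 3, 4 and 5 were called polysomal in ASP shSCR, NoASP shSCR, then ASP shGRIN2D and ASP shDHPS, and 1, 0, 0 and 0 sub-polysomal. Without ASP shSCR replicate 2 the polysomal counts were 4, 5, 4 and 6 of 8 genes (Zeb1 not counted), beside 18.3%, 23.2%, 23.1% and 21.8% of all genes, so ASP shSCR was then level with ASP shGRIN2D. These are counts of calls and not a test that the conditions differ.

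**Figure D4:**
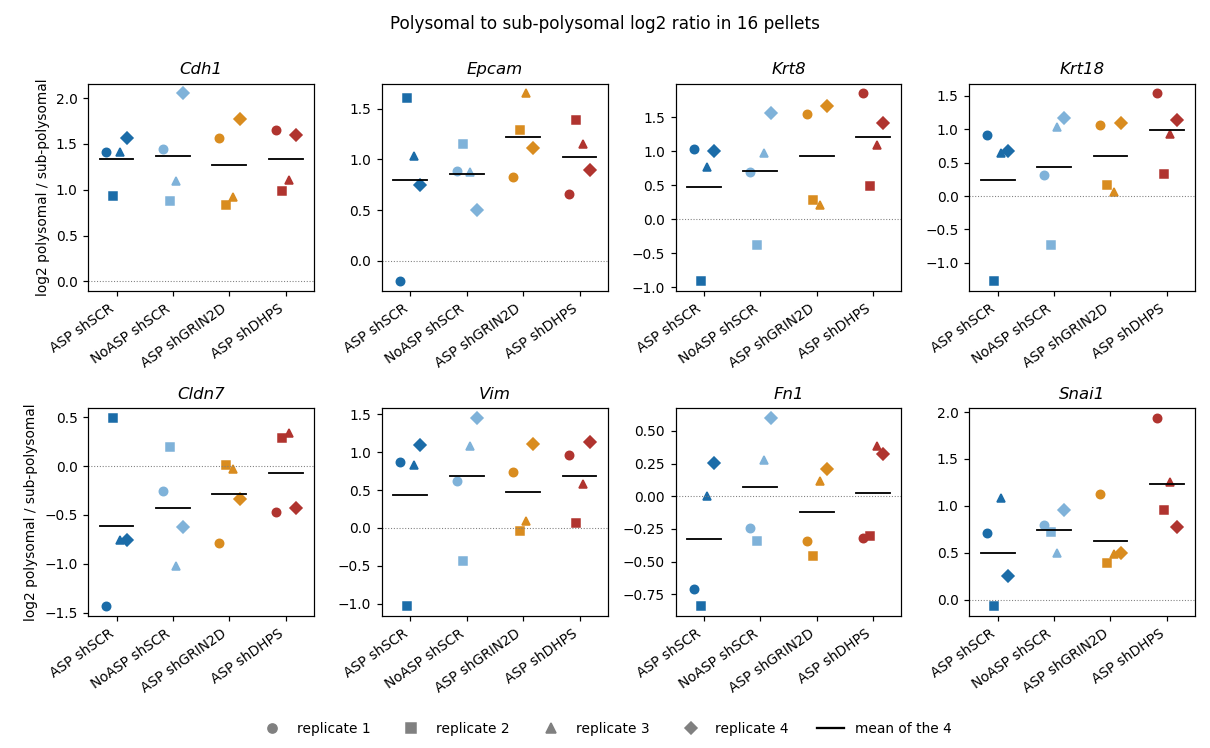
Log2 ratio of polysomal to sub-polysomal level in each of the 16 pellets for 8 genes, by condition, with the mean of the 4 pellets as a line and 0 (the normalized average transcript) dotted. Cdh1 is above 0 in every pellet, Cldn7 in 5, and squares (replicate 2) are lowest in ASP shSCR for Krt8, Krt18 and Vim.

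The ratios were then compared between conditions. The log2 ratio of Snai1 was 0.71, −0.070, 1.08 and 0.25 in the ASP shSCR pellets and 1.94, 0.96, 1.25 and 0.77 in those of ASP shDHPS. ASP shDHPS was higher in mean, with overlapping pellets, and the difference of 0.74 (SE 0.28, adjusted p = 0.239) was not called. Krt8 gave 1.03, −0.91, 0.76 and 1.000 in ASP shSCR and 1.86, 0.49, 1.09 and 1.42 in ASP shDHPS, again overlapping, with 0.72 (SE 0.45, adjusted p = 0.488). Krt18 gave 0.91, −1.28, 0.64 and 0.67 in ASP shSCR and 1.54, 0.34, 0.93 and 1.14 in ASP shDHPS, with 0.72 (SE 0.44, adjusted p = 0.48). The difference was 0.22 (SE 0.42, adjusted p = 0.87) for Vim and 0.56 (SE 0.34, adjusted p = 0.484) for Cldn7. All 8 fitted differences of ASP shDHPS from ASP shSCR were above 0, from 0.0013 for Cdh1 to 0.74 for Snai1, and none was called. Without ASP shSCR replicate 2, those of Vim (−0.22) and Cdh1 (−0.12) were below 0 and those of Krt8, Krt18 and Snai1 were 0.30, 0.26 and 0.57. Without replicate 1 that of Epcam was below 0 (−0.069). At an unadjusted p under 0.05 there was 1, Snai1, beside 2416 of all 17757 genes in the same fit. Over the whole table, 0 genes (0%) were called higher and 37 (0.208%) lower in this comparison, and 0 to 159 in all with 1 pellet left out. The split depended on the method. DESeq2's Wald test called 228 higher and 436 lower, filterByExpr 4 and 184, and the replicate block 15 and 216. In ASP shGRIN2D, differences ran from −0.062 for Cdh1 to 0.44 for Krt8 with 0 genes of the table called (571 at an unadjusted p under 0.05, and 0 by DESeq2). There, leaving out ASP shSCR replicate 2 turned Krt18 (−0.13), Vim (−0.44) and Snai1 (−0.039) to values below 0. Between the knockdown lines 1 gene of the table (0.00563%) was called, lower and none of these. With aspartate against without, all 8 were below 0, from −0.40 for Fn1 to −0.033 for Cdh1, with 0 called (343 at an unadjusted p under 0.05, and 0 by DESeq2). Without ASP shSCR replicate 2, 4 of the 8 were above 0 (Cdh1 at 0.10, Krt8 at 0.21, Krt18 at 0.29 and Vim at 0.24), and without replicate 1 Epcam (0.26) and Cldn7 (0.059) were. These comparisons share the ASP shSCR pellets and are not independent of each other. The SEs ran from 0.28 to 0.45 for the 8 genes over all comparisons, and differences as large as the 0.74 of Snai1 were not called.

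A wider list of 42 epithelial genes, 41 of them measured, gave calls mainly in further keratins. In sub-polysomal libraries of ASP shDHPS, 5 of 41 were called lower than in ASP shSCR, beside 0.974% of all genes, and none was called higher, beside 0.439%, counts that describe the list and test nothing. The median log2 difference was −0.15 beside 0.0081 over all genes. Krt7, a keratin of simple and glandular epithelia, was at 676, 933, 616 and 571 CPM in ASP shSCR and 305, 330.3, 397 and 334 CPM in ASP shDHPS, a log2 difference of −1.03 (SE 0.17, adjusted p = 0.00157). It was at 276, 321, 356 and 315 CPM in ASP shGRIN2D, −1.14 (SE 0.17, adjusted p = 9.04e-04), the 1 call among the 41 genes there, where 0.208% of all genes were called lower. The 8 shSCR libraries with or without aspartate held 467 to 933 CPM, above all 8 knockdown libraries, and without ASP shSCR replicate 2 both calls were kept (−0.87 and −0.97, adjusted p = 0.00748 and 0.00423).

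Krt19, the smallest type I keratin, fell by 1.04 (SE 0.18, adjusted p = 0.00221) on the log2 scale in ASP shDHPS, with 38.8 to 51.0 CPM against 66.3 to 135 CPM in the 8 shSCR libraries. Krt14, a keratin of basal cells, fell by 0.78 (SE 0.15, adjusted p = 0.00461), with 35.1 to 46.4 against 52.5 to 75.2 CPM. Ap1m2, an epithelial subunit of the AP-1 clathrin adaptor, fell by 1.72 (SE 0.29, adjusted p = 0.00148), with 2.27 to 3.24 against 4.63 to 15.7 CPM. In these 3 genes no ASP shDHPS library reached the lowest shSCR library. The calls of Krt19, Krt14 and Ap1m2 were kept in each of the 16 fits that left out 1 library. These genes and Krt7 were named for large called differences in this comparison. Separate groups and kept calls follow in part from that choice, and the share of all genes with separate groups was not counted. Rab25, a small GTPase of epithelial vesicle recycling, was the fifth call of the list and, outside the rule for named genes, is named after its value was seen, at −0.69 (adjusted p = 0.0365). The CPM of the 6 luminal markers, of which Krt7 was the most abundant, were also summed. In sub-polysomal libraries the sum was 959 to 1422 in ASP shSCR, 888 to 1030.2 in NoASP shSCR, 592 to 676 in ASP shGRIN2D and 628 to 815 in ASP shDHPS. Krt7 alone held 467 to 933 CPM in the 8 shSCR libraries, 276 to 356 in ASP shGRIN2D and 305 to 397 in ASP shDHPS. The sums thus largely repeat Krt7, and the markers without it were not summed apart. In polysomal libraries the sums overlapped, at 1689 to 2442 in ASP shSCR, 1758 to 2795 in NoASP shSCR, 1166 to 2202 in ASP shGRIN2D and 1586 to 3201 in ASP shDHPS.

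In the polysomal fraction none of these 4 genes was called in ASP shDHPS against ASP shSCR. Krt7 was at 1558, 899, 1483 and 1478 CPM in ASP shSCR and 1664, 741, 1157 and 1110.3 CPM in ASP shDHPS, with overlap and a log2 difference of −0.21 (SE 0.29, adjusted p = 0.759). In ASP shGRIN2D it was at 1216, 581, 689.7 and 1199 CPM, also overlapping ASP shSCR, a difference of −0.56 (SE 0.29, adjusted p = 0.603). Krt19 was at 207, 159.9, 217 and 237 CPM and 182, 85.1, 173 and 159 CPM, also with overlap, a difference of −0.46 (SE 0.30, adjusted p = 0.467). Krt14 gave −0.22 (SE 0.34, adjusted p = 0.79) with overlapping groups. Ap1m2, at 18.3, 20.0, 20.0 and 23.9 CPM in ASP shSCR and 17.1, 7.98, 13.2 and 11.2 CPM in ASP shDHPS, did not overlap, and its difference was −0.73 (SE 0.25, adjusted p = 0.161).

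**Figure D5:**
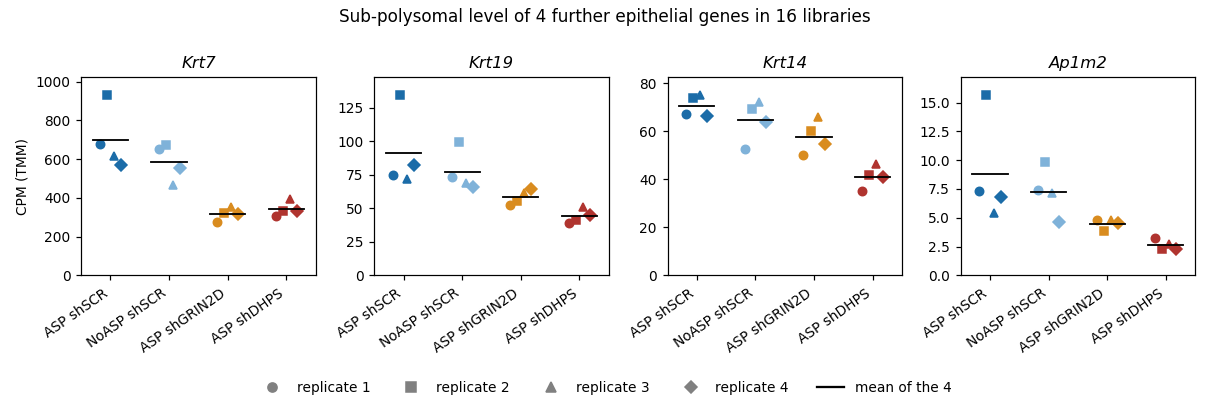
Sub-polysomal level of Krt7, Krt19, Krt14 and Ap1m2 (CPM after TMM normalization, linear axis from 0) in the 16 libraries, by condition. Symbols give the replicate number and lines the mean of the 4 libraries. The ASP shDHPS libraries of all 4 genes lie below every shSCR library, as do those of ASP shGRIN2D for Krt7 and Krt19.

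The mesenchymal list of 35 genes, 26 of them measured, had 1 call over the levels of both fractions and all comparisons. That gene was Inhba in polysomal ASP shDHPS libraries, where 0.158% of all genes were called lower than in ASP shSCR, which encodes the activin beta A subunit. It was at 10.9, 25.1, 17.8 and 21.3 CPM in polysomal ASP shSCR libraries and 4.75, 8.14, 6.24 and 8.37 CPM in ASP shDHPS, with no overlap and a log2 difference of −1.45 (SE 0.26, adjusted p = 0.0333). The call was lost in 9 of the 16 fits that left out 1 library (any of the 4 of ASP shDHPS, ASP shSCR replicates 2 or 4 and NoASP shSCR replicates 1, 3 or 4), with differences from −1.56 to −1.28 and adjusted p up to 0.259, and in the fit of the 2 conditions alone (adjusted p = 0.192). The list's median sub-polysomal difference in ASP shDHPS was 0.17 beside 0.0081 over all genes, and in ASP shGRIN2D it was 0.0041. With only the 18 list genes that averaged at least 50 counts, the ASP shDHPS median was 0.055, beside 0.021 over all such genes. For ASP shGRIN2D these values were 0.046 and 0.0082. The 0.17 thus rested largely on list genes with low counts.

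Genes of both lists lay on either side of the gradient. Of the 41 epithelial genes, 20, 24, 24 and 23 were called polysomal in ASP shSCR, NoASP shSCR, then ASP shGRIN2D and ASP shDHPS and 2, 2, 2 and 1 sub-polysomal. Over all genes the shares were 20.8%, 23.7%, 23% and 21.8% polysomal and 18.9%, 20.6%, 20.4% and 21.3% sub-polysomal. Ctnnb1, which encodes beta-catenin, was polysomal in all 4 conditions, with log2 ratios of 1.86, 1.78, 1.63 and 1.67. Crb3, a polarity gene, was sub-polysomal in all 4, from −1.33 to −1.14. Of the 26 mesenchymal genes, 6, 7, 7 and 7 were called polysomal, a share near that of all genes, and 2, 3, 2 and 4 sub-polysomal, a share below that of all genes. Sparc, which encodes a secreted matrix protein, was polysomal in all 4 conditions, at 1.30, 1.65, 1.43 and 1.56. Twist1, a transcription factor of mesenchymal cells, was sub-polysomal in all 4, at −1.29, −1.66, −1.65 and −1.65, and so was the receptor tyrosine kinase gene Axl, at −1.33, −1.16, −1.30 and −0.91. Snai1 and Twist1 lay on opposite sides of the average transcript in the conditions in which both were called. No gene of either list was called in a difference of ratios between conditions.

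Some correlations between the members differed between the fractions and others did not. In sub-polysomal libraries Cldn7 and Vim ran opposite (r = −0.80 over 16 libraries), as did Epcam and Vim (r = −0.55), and Epcam and Cldn7 ran together (r = 0.69). The signs were the same in polysomal libraries, at r = −0.55, −0.64 and 0.29 for these pairs. Cdh1 followed neither, at r = −0.034 with Krt8 and 0.12 with Vim. In polysomal libraries Cdh1 ran with Vim (r = 0.93) and Krt8 (r = 0.88), genes that share the low replicate 2. Of 10909 genes with a mean of at least 50 counts, those most like Krt8 in the sub-polysomal fraction were Selenoo (r = 0.97 sub-polysomal, 0.45 polysomal) and Krt7 (r = 0.95 sub-polysomal, 0.87 polysomal), and those most like Krt18 were Krt8 itself and Gpi1 (r = 0.94 sub-polysomal, 0.92 polysomal). For Vim they were Traf3ip2 (r = 0.92 sub-polysomal, 0.82 polysomal) and Ctns (r = 0.86 sub-polysomal, 0.50 polysomal), for Fn1 Afap1l2 (r = 0.87 sub-polysomal, 0.67 polysomal) and Itgb3 (r = 0.85 sub-polysomal, 0.30 polysomal), and for Cdh1 Ppp2r2a (r = 0.91 sub-polysomal, 0.69 polysomal). Epcam was most like Slc9a3r1 (r = 0.89 sub-polysomal, 0.21 polysomal) and Sult2b1 (r = 0.86 sub-polysomal, 0.027 polysomal), Cldn7 most like Nsmce1 (r = 0.92 sub-polysomal, 0.72 polysomal) and Gnb1l (r = 0.90 sub-polysomal, 0.46 polysomal), and Snai1 most like Bcorl1 (r = 0.89 sub-polysomal, 0.62 polysomal) and Sertad3 (r = 0.86 sub-polysomal, 0.058 polysomal). These correlations are over libraries that share conditions, replicate numbers and normalization, and are given as a description.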

How the data were processed

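The estimated counts per gene were deposited by the authors, who trimmed reads with Trim Galore 0.6.6, mapped them to GRCm39 with STAR 2.6.1, quantified them with Salmon 1.4.0, rounded the estimates and kept genes detected across replicates of at least 1 group. FastQC 0.11.9 and DESeq2 1.34.0 are also named in the submitters' processing notes. The deposited tables of the authors' own comparisons (fold changes, p-values, scores and gene set results) were not used. Rounding leaves values for low genes such as Zeb1 uncertain, and reads shared between similar keratin genes and pseudogenes were divided by Salmon's estimates.

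Levels were tested with edgeR 4.0.16 in R 4.3.3 (TMM, quasi-likelihood F-test, two-sided) among the 16 libraries of a fraction, and ratios over all 32 with a term for each of the 16 pellets, the study's own design. Adjusted p-values are Benjamini-Hochberg over 17757 genes, with a threshold of 0.05. CPM are TMM-normalized within a fraction, and pellet ratios use TMM over all libraries with a prior count of 2. 0 pairs of libraries had identical counts. Coordinates are from GENCODE M21 (GRCm38), used for transcript lengths and positions only, since the counts were made on GRCm39. Promoter windows came from RefSeq and were used for 6 of the 10 members (7 windows). Windows on chromosome 18, where Zeb1 lies, were left out of the member windows.

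The members and lists were chosen with earlier results of these data known. Members are all described. List genes are named by the 4 largest called differences per direction among genes averaging 50 counts or more, and the genes most like a member by the 2 highest correlations. Some genes that this rule selects are not reported here. The numbers of replicates pair pellets where every same-numbered pair correlated above 0.1, which held for the sub-polysomal comparisons of ASP shSCR with NoASP shSCR (lowest r = 0.25) and of ASP shDHPS with ASP shGRIN2D (lowest r = 0.20) and in no other. Some pairs passed where the rule failed. Sub-polysomal ASP shSCR pairs gave r = 0.17, 0.17, −0.021 and 0.31 with ASP shDHPS and 0.42, −0.0076, 0.0070 and 0.11 with ASP shGRIN2D. An effect shared by part of the numbers was not tested. The labels call the 4 pellets of a condition independent without naming separate cultures, so p-values measure the spread between pellets. On simulated counts for the sub-polysomal comparison of ASP shDHPS with ASP shSCR, with 200 of 17757 genes changed by 1 on the log2 scale, edgeR found 140 with 11 false calls, and for the ratio difference 36 with 10. The changed genes all averaged at least 50 counts. The simulated spread came from the fit with a term for each pellet, so spread between pellets was left out. The level test carries that spread, and what it would find with it was not tested. Alternatives were DESeq2 1.42.0 (size factors and Wald test), edgeR's filterByExpr, a replicate block, a fit without the pellet term, fits of the 2 conditions compared, another prior count and leaving out each library or pellet.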

Additional observations from a re-analysis of the deposited data

Results flagged for a closer look

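Among 96 groups of 4 libraries or pellets of these genes, 6 had a value whose gap to its nearest neighbour was, as a share of the group's range, above Dixon's 95% critical value, where chance gives 4.8. In 5 of the 6 the value belonged to ASP shSCR replicate 2. Its sub-polysomal log2 CPM was 10.77 for Krt8, above the other 3 libraries of its group, and 6.62 for Cldn7, below them. Its log2 ratio of polysomal to sub-polysomal level was −0.91 for Krt8, −1.28 for Krt18 and −1.03 for Vim, below the other 3 pellets in each. The sixth was ASP shGRIN2D replicate 1, whose log2 ratio for Snai1 was 1.12, above the other 3.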

How the results depend on the processing

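Of sub-polysomal levels called, ASP shSCR minus NoASP shSCR had 0 (1 with DESeq2's Wald test, 0 with 1 library left out), ASP shGRIN2D minus ASP shSCR had 56 (231 with DESeq2's Wald test, 23 to 64 with 1 library left out), ASP shDHPS minus ASP shSCR had 251 (652 with DESeq2's Wald test, 80 to 370 with 1 library left out) and ASP shDHPS minus ASP shGRIN2D had 129 (270 with DESeq2's Wald test, 80 to 176 with 1 library left out). Of polysomal levels called, ASP shSCR minus NoASP shSCR had 0 (1 with DESeq2's Wald test, 0 with 1 library left out), ASP shGRIN2D minus ASP shSCR had 3 (7 with DESeq2 size factors, 69 with DESeq2's Wald test, 0 with only the 2 conditions, 0 to 98 with 1 library left out), ASP shDHPS minus ASP shSCR had 30 (18 with filterByExpr, 554 with DESeq2's Wald test, 1 with only the 2 conditions, 0 to 304 with 1 library left out) and ASP shDHPS minus ASP shGRIN2D had 15 (204 with DESeq2's Wald test, 2 to 36 with 1 library left out). Of ratio differences called, ASP shSCR minus NoASP shSCR had 0 (0 with 1 pellet left out), ASP shGRIN2D minus ASP shSCR had 0 (0 with 1 pellet left out), ASP shDHPS minus ASP shSCR had 37 (0 with DESeq2 size factors, 188 with filterByExpr, 664 with DESeq2's Wald test, 0 with no pellet term, 0 with only the 2 conditions, 0 to 159 with 1 pellet left out) and ASP shDHPS minus ASP shGRIN2D had 1 (2 with filterByExpr, 37 with DESeq2's Wald test, 0 with no pellet term, 0 with only the 2 conditions, 0 to 1 with 1 pellet left out). Calls of a ratio within a condition came to 5603 to 7195 in ASP shSCR, 6619 to 8104 in NoASP shSCR, 6542 to 7976 in ASP shGRIN2D and 6373 to 7953 in ASP shDHPS with 1 pellet left out. The sub-polysomal difference of ASP shDHPS from ASP shSCR ran from −0.82 to −0.53 for Krt8 (adjusted p 0.036 to 0.247) and from −1.15 to −0.60 for Krt18 (adjusted p 0.0105 to 0.232) with 1 library left out, and both calls held under DESeq2, filterByExpr, the block and the fit of the 2 conditions.

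With the replicate number as a block, the calls were 195 in place of 56 for the sub-polysomal level of ASP shGRIN2D minus ASP shSCR, 758 in place of 251 for the sub-polysomal level of ASP shDHPS minus ASP shSCR, 291 in place of 129 for the sub-polysomal level of ASP shDHPS minus ASP shGRIN2D, 27 in place of 3 for the polysomal level of ASP shGRIN2D minus ASP shSCR, 405 in place of 30 for the polysomal level of ASP shDHPS minus ASP shSCR, 103 in place of 15 for the polysomal level of ASP shDHPS minus ASP shGRIN2D and 231 in place of 37 for the ratio difference of ASP shDHPS minus ASP shSCR. The block also called Krt8 (−0.82) and Krt18 (−0.92) lower in ASP shGRIN2D, Epcam lower in ASP shDHPS (−0.53) and Fn1 lower in ASP shDHPS than in ASP shGRIN2D (−0.66), and turned Cdh1 in polysomal ASP shGRIN2D minus ASP shSCR to −0.016. Of the other level and ratio differences of the 8 genes and of the list genes followed, it changed no call, and within a condition it further called Vim polysomal in 3 conditions and Krt8, Krt18 and Snai1 in 1 each. DESeq2's Wald test also called Krt8 lower in sub-polysomal ASP shGRIN2D and Fn1 lower in ASP shDHPS than in ASP shGRIN2D. filterByExpr called that Fn1 difference and Snai1 polysomal within ASP shSCR, and the fit with no pellet term called Krt8 polysomal within NoASP shSCR. Of the 16 libraries or pellets, 13 sub-polysomal, 11 polysomal and 10 ratio profiles correlated best with one of their own number.

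Values near 0, at most 0.073 in size, changed sign with DESeq2's Wald test, Fn1 within NoASP shSCR (−0.023) and Fn1 within ASP shDHPS (−0.013), with DESeq2 size factors, Fn1 within NoASP shSCR (−0.023) and Fn1 within ASP shDHPS (−0.013), with filterByExpr, Krt8 polysomal level, ASP shSCR minus NoASP shSCR (−0.0098), Krt8 polysomal level, ASP shDHPS minus ASP shSCR (0.0073), Fn1 polysomal level, ASP shDHPS minus ASP shSCR (0.0012), Vim ratio ASP shGRIN2D minus ASP shSCR (−0.036) and Cdh1 ratio ASP shDHPS minus ASP shSCR (−0.040), with no pellet term, Cdh1 ratio ASP shDHPS minus ASP shSCR (−0.024), with only the 2 conditions, Cdh1 ratio ASP shDHPS minus ASP shSCR (−0.045). Leaving out 1 library or pellet changed the sign of 43 uncalled values, at most 0.37 in size, over these ranges. In the sub-polysomal level, ASP shSCR minus NoASP shSCR (Epcam −0.22 to 0.018, Fn1 −0.056 to 0.10, Krt18 −0.025 to 0.55, Vim −0.21 to 0.23), ASP shGRIN2D minus ASP shSCR (Snai1 −0.18 to 0.082), ASP shDHPS minus ASP shSCR (Vim −0.078 to 0.37), ASP shDHPS minus ASP shGRIN2D (Epcam −0.19 to 0.10, Krt18 −0.060 to 0.13, Krt8 −0.033 to 0.21). In the polysomal level, ASP shSCR minus NoASP shSCR (Cdh1 −0.44 to 0.043, Cldn7 −0.11 to 0.15, Epcam −0.22 to 0.017, Krt18 −0.14 to 0.40, Krt8 −0.19 to 0.33, Snai1 −0.054 to 0.19, Vim −0.37 to 0.12), ASP shGRIN2D minus ASP shSCR (Cdh1 −0.27 to 0.24, Snai1 −0.14 to 0.24, Vim −0.088 to 0.46), ASP shDHPS minus ASP shSCR (Fn1 −0.25 to 0.15, Krt18 −0.43 to 0.089, Krt8 −0.28 to 0.18), ASP shDHPS minus ASP shGRIN2D (Cdh1 −0.031 to 0.49, Snai1 −0.029 to 0.39, Vim −0.17 to 0.37). In the ratio difference, ASP shSCR minus NoASP shSCR (Cdh1 −0.20 to 0.19, Cldn7 −0.56 to 0.059, Epcam −0.32 to 0.26, Krt18 −0.57 to 0.29, Krt8 −0.59 to 0.21, Vim −0.59 to 0.24), ASP shGRIN2D minus ASP shSCR (Cdh1 −0.23 to 0.093, Krt18 −0.13 to 0.60, Snai1 −0.077 to 0.33, Vim −0.44 to 0.23), ASP shDHPS minus ASP shSCR (Cdh1 −0.12 to 0.12, Epcam −0.069 to 0.51, Vim −0.22 to 0.45), ASP shDHPS minus ASP shGRIN2D (Cdh1 −0.073 to 0.23). In the ratio within a condition, ASP shSCR (Krt18 −0.032 to 0.70), NoASP shSCR (Fn1 −0.10 to 0.21), ASP shDHPS (Cldn7 −0.21 to 0.068, Fn1 −0.10 to 0.14). The cause of these changes was not tested, apart from the fewer genes that filterByExpr leaves. Zeb1 had 0 to 15 counts per library, and what difference could be detected at such counts was not tested.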
